A study of Mus musculus with 6 samples.

Results

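The Gnas complex, an imprinted gene cluster on mouse chromosome 2, was described through all cytosine positions between 174280000 and 174350000 (build GRCm38) that had at least 5 reads in each of 6 libraries. This gave 315 positions, out of 1122420 that met the same read minimum across the genome. The choice of positions used location and read number only, and no methylation level entered it. The members and gene lists were chosen with earlier results of these data known. Within the interval 1568 positions were listed in at least 1 library, so most listed positions lacked reads in some library and are not described. The libraries were made by reduced representation bisulfite sequencing (RRBS), in which DNA is cut by MspI at CCGG, short fragments are kept, and bisulfite converts unmethylated cytosine so that each read reports a cytosine as methylated or not. The right testis of 3 KM mice whose left testis had been removed before puberty (hemicastrated) was compared with the right testis of 3 sham-operated KM mice, all sampled at maturity. Each library is 1 mouse, no age in days or weeks was given, and the tissue is whole testis, so fewer cells of a type cannot be told apart from a change of methylation within cells. The submitters' title concerns spermatogenesis-related changes of methylation after hemicastration, which is the question the comparison of groups addresses.

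Gnas encodes the stimulatory G protein alpha subunit, which couples hormone receptors, among them those of the gonadotrophins, to adenylyl cyclase and so to cyclic AMP. The complex has several promoters. The Nesp promoter lies furthest upstream and drives the transcript of the secretory protein Nesp55. Gnasas1, also called Nespas, is an antisense RNA that runs from the control region back across Nesp, and the same region holds the promoter of Gnasxl, which encodes the long form XLαs. Exon 1A starts an untranslated transcript just upstream of the Gnas promoter proper. In somatic tissue the Nesp promoter is methylated on the paternal allele, the control region and exon 1A are methylated on the maternal allele, and the Gnas promoter is free of methylation on both. The control region and exon 1A receive their mark in the oocyte, while the Nesp mark is set after fertilisation. Marks of the oocyte are erased in germ cells and are not set in sperm.

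In RefSeq, Gnas (gene ID 14683, protein coding) spans 174284320-174346744 and Gnasas1 (gene ID 56802, antisense RNA) spans 174281237-174295436. The long noncoding RNA Gm30189 spans 174320906-174327387. The interval was read in 4 windows: the Nesp window from 174280000 to 174290000, the control region from 174294000 to 174300000, and the exon 1A and Gnas window from 174326000 to 174331000 split at its middle into the exon 1A side and the Gnas side, which begins at 174328501. The remaining 62 positions, between and beyond these windows, were pooled.

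Promoter sequences of 300 bases (250 before the start and 50 after it) show which CpGs the assay could read at the start sites. They were taken from RefSeq for build GRCm38.p6, plus strand, and are shown for the starts with an entry at Nesp, exon 1A and Gnas. Capitals mark CpGs with a measured position in all 6 libraries, and all other bases are in lower case.

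Nesp promoter: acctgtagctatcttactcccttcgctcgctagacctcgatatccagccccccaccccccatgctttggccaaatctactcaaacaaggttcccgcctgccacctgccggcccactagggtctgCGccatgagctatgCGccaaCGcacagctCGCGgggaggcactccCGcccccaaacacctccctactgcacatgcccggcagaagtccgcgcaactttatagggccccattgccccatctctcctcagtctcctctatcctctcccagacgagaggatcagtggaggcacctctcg
exon 1A promoter: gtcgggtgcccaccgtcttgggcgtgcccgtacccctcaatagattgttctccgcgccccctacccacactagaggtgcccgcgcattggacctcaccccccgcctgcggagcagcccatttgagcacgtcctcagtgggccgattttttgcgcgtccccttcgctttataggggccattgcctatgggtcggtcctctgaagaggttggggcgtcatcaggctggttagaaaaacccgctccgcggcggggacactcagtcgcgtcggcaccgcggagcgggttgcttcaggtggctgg
Gnas promoter: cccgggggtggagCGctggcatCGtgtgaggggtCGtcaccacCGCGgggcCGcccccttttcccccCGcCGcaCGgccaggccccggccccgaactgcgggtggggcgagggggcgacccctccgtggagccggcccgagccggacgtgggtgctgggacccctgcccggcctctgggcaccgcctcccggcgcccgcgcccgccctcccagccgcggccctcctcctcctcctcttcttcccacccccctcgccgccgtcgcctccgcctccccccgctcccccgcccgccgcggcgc

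The Nesp promoter (174284070-174284369) held 16 CpGs, of which 6 were measured, and 2 CCGG sites. The exon 1A promoter (174327499-174327798) held 27 CpGs and no CCGG site, and none of its CpGs was measured. The Gnas promoter (174329756-174330055) held 40 CpGs, of which 9 were measured, and 6 CCGG sites. The motif CCGG reads the same on both strands, and 52.8% of 32815 mouse promoters of this length held at least 1. The exon 1A transcript was therefore read only downstream of its start, at positions given below. Of 165433 measured positions within such promoters across the genome, 99.98% lay at a CpG, so the positions are described as CpG methylation.

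The libraries held between 64504011 and 78630942 methylation calls and between 14914 and 19573 calls within the interval. Methylation of mitochondrial cytosines, a measure of incomplete conversion and of calling error together, was between 0.478% and 0.617%. Position levels correlated between libraries with Pearson's r from 0.9819 to 0.9858 across positions, which are not independent replicates. Nothing in the labels gave a batch or date.

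The interval was lowly methylated around its promoters and highly methylated elsewhere within the gene. Of 315 positions, 53 had a mean level over the 6 libraries under 5%, 237 lay from 5% to 25%, 7 lay between 25% and 75%, and 18 stood at 75% or more. Of the 19 tiles of 500 bp with at least 3 positions, 13 had a level from 5% to 25%, against 7.72% of 82904 such tiles across the genome. Most of these tiles of the complex thus stood in a band that few measured tiles of the genome occupied. Not all of them lie at promoters, and the tiles around the Gnas start stood below the band. The share of tiles in the band was described and not tested. At 113 pairs of neighbouring positions, means over the 6 libraries differed by a median of 2.23 points, and 112 of these pairs lay within 10 points. The pairs are the 2 strands of a CpG and, where CpGs adjoin, also positions of neighbouring CpGs. Single libraries could differ more, as the strands of the exon 1A side did in hemicastrated replicate 1 (8.01% and 20.6%).

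**Figure D1:**
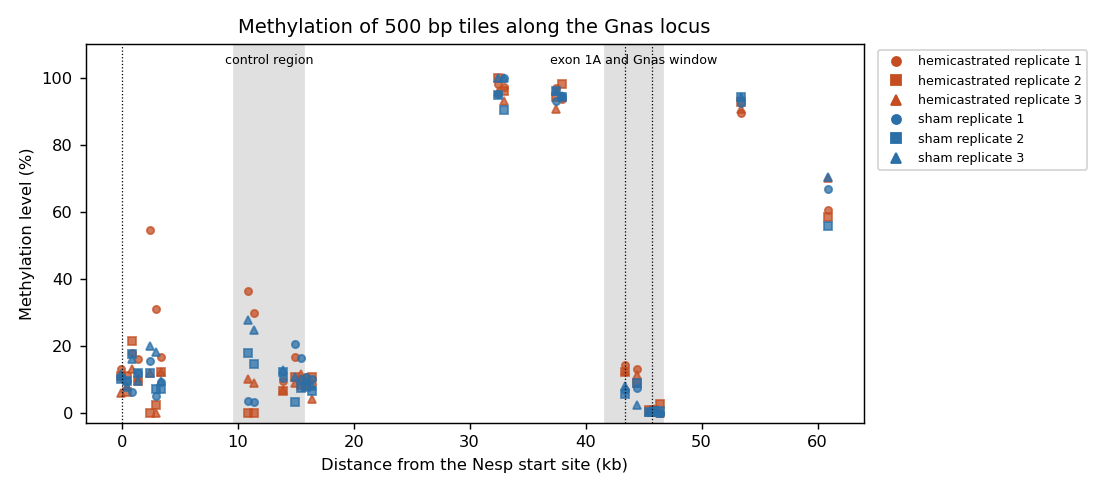
Methylation level (percent of calls, y axis) of each 500 bp tile against its distance in kb from the Nesp start site, 1 point per library; grey bands are the control region and the exon 1A and Gnas window, dotted lines the Nesp, exon 1A and Gnas start sites. Most points of the Nesp window and control region lie between 5% and 25%, those at the Gnas start under 3%, and those at the 6 tiles with mean levels over 50% lie apart from the rest.

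The Nesp window, where Nesp55 transcription starts, was partly methylated in every library. Over 55 positions its level was 15.5%, 8.69% and 8.97% in hemicastrated replicates 1 to 3 and 10.9%, 10.1% and 10.6% in sham replicates 1 to 3. The sham libraries lay within the range of the hemicastrated ones, of which replicate 1 was the highest of all 6. The hemicastrated mean exceeded the sham mean by 0.545 points (standard error, SE, 2.24; exact two-sided permutation p = 1, n = 3 per group). Without hemicastrated replicate 1 it was -1.68 points, so that its sign rested on this library. With 3 mice against 3 the smallest p this test can give is 0.1, so no window could pass 0.05. Window levels here are unweighted means over positions, while tile and start window levels below are methylated calls over all calls. Calls are summed over positions, so a read counts once at each CpG it covers.

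At the Nesp start itself (174284320, 1000 bp either side, 29 positions) hemicastrated libraries stood at 9.04% ± 2.52 and sham libraries at 9.55% ± 0.367 (SD, n = 3 each). The 12 positions within the printed Nesp promoter lay from 126 to 80 bp upstream of the start and stood at 9.87% ± 2.93 and 10.6% ± 0.892 (SD, n = 3 each). The groups overlapped at the start, and the spread of the hemicastrated libraries was larger than the difference. The lowest position of the window, 174284753, averaged 2.83%, and the highest, 174286974, averaged 18.9% on 8 to 25 reads per library. The first of these was 1 of 2 positions in the window where every hemicastrated library lay below every sham library. Such positions were 3.64% of the 55 in the window, close to the 2.66% of all positions of the genome.

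One Nesp tile differed between the groups without overlap. The tile 174287501-174288000, 3320 to 3475 bp downstream of the Nesp start at its 7 positions and inside both Gnas and Gnasas1, read 16.7%, 12.2% and 12% in hemicastrated replicates 1 to 3. Sham replicates 1 to 3 read 9.04%, 6.97% and 9.38%, all below the lowest hemicastrated library. The unadjusted p of edgeR's quasi-likelihood test was 0.033 and the Benjamini-Hochberg adjusted p over all tiles of the genome was 1. The tile just upstream, 174287001-174287500, ranged from 31.0% in hemicastrated replicate 1 to 0% in hemicastrated replicate 3. The latter had 85 calls, on 17 reads at each position, and none was methylated. Were the calls independent, a level of up to 3.53% would remain possible. Calls on 1 read are not independent, so the limit is higher. The sham libraries of this tile read 5.13%, 7.20% and 18%, so libraries of 1 group differed there more than the groups did. The largest spread of any tile was that of 174286501-174287000, which rested on 1 position with 8 to 25 reads and read 54.5% in hemicastrated replicate 1 and 0% in replicate 2.

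The control region, which holds the Gnasas1 start and the Gnasxl promoter, stood at a level close to that of Nesp. Over 91 positions it read 13.6%, 7.56% and 8.96% in hemicastrated replicates 1 to 3 and 16.3%, 7.63% and 11.7% in sham replicates 1 to 3. The groups overlapped almost fully, with a difference of -1.83 points (SE 3.11, exact two-sided permutation p = 0.6, n = 3 per group). Without sham replicate 1 the difference was 0.392 points, so its sign too rested on 1 library.

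At the start of Gnasas1 (174295436, 8 positions) the libraries were the most scattered of any start in the complex. Hemicastrated replicates 1 to 3 read 30.7%, 0% and 8.99%, and sham replicates 1 to 3 read 3.20%, 14.9% and 25.2%, on 88 to 235 calls per library. The group means, 13.2% ± 15.8 and 14.4% ± 11 (SD, n = 3 each), differed by far less than the libraries within a group. The 0% of hemicastrated replicate 2 came from 110 calls, on 13 or 14 reads at each position. Were the calls independent, they would allow a level of up to 2.73%. Calls on 1 read are not independent, and the 14 reads of a single position allow up to 21.4%. The tile that holds 7 of these 8 positions, 174295501-174296000, gave 29.9%, 0% and 8.86% against 3.14%, 14.5% and 24.8% (unadjusted edgeR p of 0.82, adjusted p = 1). The highest and the lowest position of the control region, 174295512 at a mean of 16.7% and 174295569 at 1.45%, lay in this same tile.

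Further into the control region the libraries were more alike, and 1 tile was lower after hemicastration. The tile 174298001-174298500, with 26 positions and a median of 44 reads at each, read 9.39%, 6.51% and 6.86% in hemicastrated replicates 1 to 3. It read 10.4%, 12.2% and 12.7% in sham replicates 1 to 3, so the highest hemicastrated library lay below the lowest sham library. The unadjusted p was 0.034 and the adjusted p was 1 in edgeR's quasi-likelihood test. All 6 control region positions without overlap lay in this tile and were lower in hemicastrated libraries, and 4 of them differed by 10 points or more. They were 6.59% of the 91 positions of the region, against 2.66% of all positions of the genome that were lower without overlap, and neighbouring positions share reads.

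Those 4 positions lay within 26 bp of each other and share reads. The largest difference was at 174298047, with 11.8%, 0% and 4.88% in hemicastrated replicates 1 to 3 and 22.9%, 16.3% and 34.4% in sham replicates 1 to 3, on 19 to 49 reads. The others were 174298031 (means 5.44% and 16.3%), 174298053 (5.32% and 22.5%) and 174298056 (5.51% and 15.5%), hemicastrated before sham. The other 2 positions without overlap, 174298129 (means 5.05% and 8.76%) and 174298185 (4.02% and 8.14%), differed by less, and the remaining positions of the tile overlapped between the groups. The last pair was named after its values were seen.

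The other tiles of the control region overlapped between groups. The tile 174299001-174299500, with 32 positions, read 16.7%, 10.8% and 8.94% against 20.5%, 3.20% and 10.7% (unadjusted edgeR p of 0.65). The tile 174299501-174300000, with 25 positions, read 10.1%, 8.31% and 11.4% against 16.3%, 7.37% and 10.1% (unadjusted edgeR p of 0.71). In both, sham replicate 1 was the highest library and sham replicate 2 the lowest. The tile 174295001-174295500 held 1 position with 11 to 28 reads and was not tested, with 36.4%, 0% and 10% against 3.57%, 17.9% and 27.8%. Just beyond the control region, the 31 positions of 174300001-174300500 were among the best covered, with 2296 to 2842 calls, and stood at 9.06% ± 1.45 and 9.28% ± 1.49 (SD, n = 3 each). The tile 174300501-174301000 stood at 7.67% ± 3.34 and 8.18% ± 1.83 (SD, n = 3 each).

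Exon 1A, the germline-marked start upstream of Gnas, was more methylated in every hemicastrated library than in any sham library. Over the 38 positions within 1000 bp of its start (174327749) the level was 12.7%, 10.5% and 11.7% in hemicastrated replicates 1 to 3. It was 6.04%, 5.35% and 6.04% in sham replicates 1 to 3, and all 3 sham libraries lay below all 3 hemicastrated ones. Each library had 2071 to 2618 calls summed over these positions, from fewer reads, since 1 read covers several CpGs. The hemicastrated mean of 11.6% ± 1.13 was 5.82 points (SE 0.691) above the sham mean of 5.81% ± 0.395 (SD, n = 3 each). The log2 coefficient of edgeR's quasi-likelihood test, on the ratio of methylated to unmethylated calls, was 1.09 with an unadjusted p of 0.00093. The Benjamini-Hochberg adjusted p over 19474 gene start windows was 0.998, so the difference did not pass the test across the genome. The coefficient lay between 0.997 and 1.17 under all 15 alternatives and leave-one-out fits, none of which gave a passing adjusted p for this window.

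**Figure D2:**
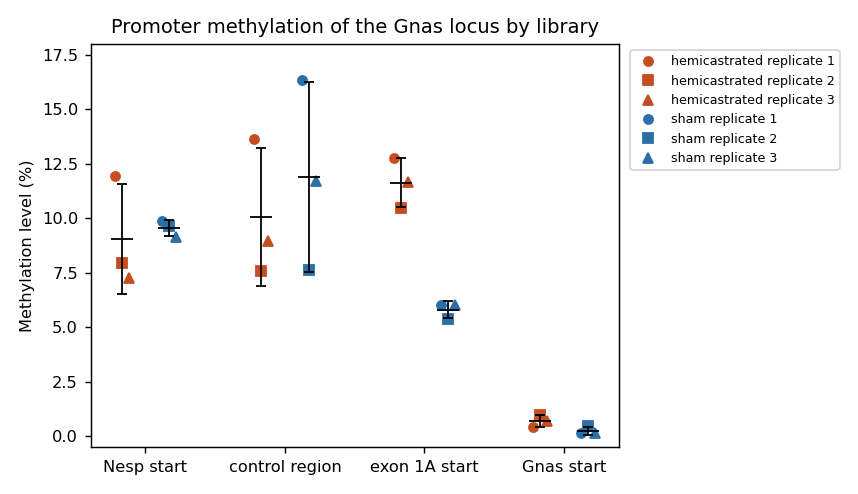
Methylation level (percent, y axis) at the Nesp start, the control region, the exon 1A start and the Gnas start, 1 point per library with group means and SD (n = 3). Start windows are pooled calls within 1000 bp and the control region is the mean over its positions. The exon 1A groups do not overlap, and the Nesp and control region groups do.

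The measured CpGs nearest to the exon 1A start lay 110 to 180 bp downstream of it, at 174327859-174327929, outside the printed promoter. These 14 positions, the only ones in the exon 1A side, had a median of 97 reads and a range of 83 to 119. Their tile, 174327501-174328000, read 14.3% (Wilson 95% interval 12.5% to 16.3%), 12.3% (10.7% to 14.05%) and 12.5% (10.9% to 14.3%) in hemicastrated replicates 1 to 3. It read 6.65% (5.52% to 7.98%), 5.62% (4.52% to 6.97%) and 8.12% (6.70% to 9.82%) in sham replicates 1 to 3. No interval of one group reached an interval of the other. These intervals cover counting error only, since reads amplified by PCR are not independent molecules and CpGs on 1 read are not independent either.

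The tile difference was 6.23 points (SE 0.965), with an unadjusted p of 0.0038 and an adjusted p of 1 in edgeR's quasi-likelihood test. It had the smallest p of the 19 tested tiles of the complex. As an unweighted mean over positions the exon 1A side differed by 6.21 points (SE 0.983, exact two-sided permutation p = 0.1, n = 3 per group), which is the smallest p the design can give. Adjusted over the 7 windows compared, that p was 0.233. Leaving out each library in turn gave 5.56 to 6.88 points.

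At 12 of these 14 positions every hemicastrated library lay above every sham library. Across the genome 2.31% of positions had groups that did not overlap with hemicastrated higher, and 2.66% with hemicastrated lower. The 14 positions share fragments, so they are not 14 separate measurements. They form 7 CpGs with both strands read. At the first position of each pair, the mean level was 8.01%, 11.4% and 9.60% in hemicastrated replicates 1 to 3 and 6.83%, 4.83% and 5.04% in sham replicates 1 to 3. At the second, read from the opposite strand, it was 20.6%, 13.4% and 15% against 6.47%, 6.36% and 11.2%. The strands therefore gave differences of 4.10 and 8.32 points, both with hemicastrated higher and without overlap. The highest position, 174327883, averaged 18.2% in hemicastrated and 7.55% in sham libraries and was the only one to differ by 10 points or more, and the lowest, 174327875, averaged 7.15% over all libraries.

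**Figure D3:**
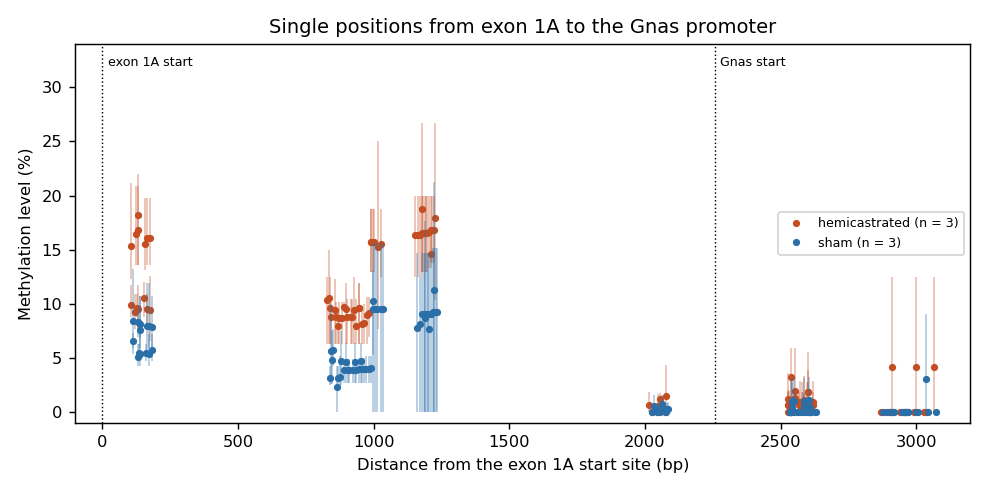
Methylation level (percent, y axis) of single positions against distance in bp from the exon 1A start site; points are group means of 3 libraries, vertical lines run from the lowest to the highest library, and dotted lines are the exon 1A and Gnas starts. Hemicastrated means lie above sham means in the stretches up to 1229 bp, and both groups lie near 0 around the Gnas start.

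The difference extended into the first tile of the Gnas side, with more spread between libraries. The 38 positions of the exon 1A start window above were the 14 of the exon 1A side and positions of this tile. The start window and the 2 tiles therefore count the same reads and are not separate observations. The tile 174328501-174329000, whose 43 positions lay 834 to 1229 bp downstream of the exon 1A start, read 12.9%, 8.97% and 11.3% in hemicastrated replicates 1 to 3. It read 7.28%, 8.79% and 2.38% in sham replicates 1 to 3, so hemicastrated replicate 2 and sham replicate 2 were nearly equal while the groups did not overlap. The unadjusted p was 0.054 and the adjusted p was 1 in edgeR's quasi-likelihood test. All 16 positions of the Gnas side without overlap, each with hemicastrated higher, lay in the 28 positions at 174328583-174328781. They were 17.2% of the 93 positions of the Gnas side, against 2.31% of all positions of the genome, and they share fragments as well. The next stretch, 174328905-174328978 with 15 positions and a median of 20 reads, read 20.4%, 16.7% and 12.9% against 11.7%, 15.3% and 0%, and its groups overlapped. The 0% of sham replicate 3 came from 255 calls, on 17 reads at each position. Were the calls independent, they would allow a level of up to 1.18%. Calls on 1 read are not independent, so the limit is higher. The highest position of the Gnas side, 174328968, lay in this stretch at a mean of 14.0%.

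The Gnas side as a whole read 7.20%, 5.80% and 5.80% in hemicastrated and 3.84%, 4.78% and 0.886% in sham replicates 1 to 3. The difference of 3.10 points (SE 1.26, exact two-sided permutation p = 0.1, n = 3 per group) includes that of the tile 174328501-174329000, which lies between the exon 1A and Gnas starts. Without sham replicate 3 the difference was 1.96 points, which is more than 1.5 times smaller. The exon 1A and Gnas window together read 8.13%, 6.66% and 6.65% against 4.21%, 4.89% and 1.84%, a difference of 3.51 points (SE 1.05, exact two-sided permutation p = 0.1, n = 3 per group).

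The Gnas promoter, which drives the G protein subunit, was nearly free of methylation in all libraries. Within 1000 bp of its start (174330006, 50 positions, 2010 to 2636 calls) the level was 0.427%, 0.945% and 0.703% in hemicastrated and 0.120%, 0.455% and 0.149% in sham replicates 1 to 3. Sham replicate 2 lay above hemicastrated replicate 1, so the groups overlapped. The means, 0.692% ± 0.259 and 0.242% ± 0.186 (SD, n = 3 each), gave an unadjusted p of 0.014 and an adjusted p of 0.998 in edgeR's quasi-likelihood test. The mitochondrial level of these libraries, 0.478% to 0.617%, lay between the means of the 2 groups.

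The tile just downstream of the Gnas start did not overlap between groups at that low level. The tile 174330001-174330500 read 0.595%, 0.848% and 1.25% in hemicastrated and 0.0861%, 0.518% and 0.103% in sham replicates 1 to 3 (unadjusted edgeR p of 0.018, adjusted p = 1). The tile 174329501-174330000, whose 9 positions are the capitals of the Gnas promoter above, averaged 0.486% ± 0.328 and 0.244% ± 0.0973 (SD, n = 3 each). The tile 174330501-174331000, with a median of 9 reads a position, had no methylated read in 4 libraries and read 2.50% in hemicastrated replicate 2 and 0.645% in sham replicate 2. Were the calls of the 4 libraries at 0 independent, they would allow levels of up to 1.67% to 3.33%. Calls on 1 read are not independent, and each position had 6 to 12 reads, so the limits are higher. Of the 93 positions of the Gnas side, 14 had no methylated read in any library.

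Within the gene body the complex was highly methylated, and the groups overlapped in all 6 tiles there. Between the control region and exon 1A, the tile 174316501-174317000 stood at 97.9% ± 2.23 and 96.6% ± 2.92 (SD, n = 3 each). The tiles 174317001-174317500, 174321501-174322000 and 174322001-174322500, the last pair inside Gm30189, had 2 positions each, averaged 94.4% to 96.1% over the libraries and were not tested. Downstream of the Gnas start, the tile 174337501-174338000 read 89.4%, 92.7% and 90.6% in hemicastrated and 92.4%, 94.2% and 94.1% in sham replicates 1 to 3 (unadjusted edgeR p of 0.14). Its groups overlapped, with hemicastrated replicate 2 above sham replicate 1. At the level of single positions, 4 of its 8 were lower in every hemicastrated library than in any sham library (174337551, 174337576, 174337664 and 174337665), against 2.66% of all positions. These 8 are neighbouring pairs that share fragments, so they are not 8 separate measurements. The neighbours 174337664 (means 94.2% and 98.8%) and 174337665 (96.1% and 99.3%), hemicastrated before sham, differed by little. The largest difference of means was 10.1 points at 174337576, with 84.1%, 82.5% and 79.1% against 92.5%, 89.8% and 93.5%. The tile 174345001-174345500, near the 3′ end of Gnas, was intermediate at 62.9% ± 6.16 and 64.2% ± 7.71 (SD, n = 3 each).

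Across the 19 tested tiles, none passed an adjusted p of 0.05, and across the genome 0 of 82658 tiles (0%) did. With limma 0 tiles were called as well. An unadjusted p under 0.05 was found for 4 of the 19, 3 with hemicastrated higher and 1 lower, against 4.37% of all tiles tested. Groups did not overlap in 4 tiles with hemicastrated higher and in 1 with hemicastrated lower, against 4.53% and 5.02% of all tiles. The 4 higher tiles were the Nesp tile 174287501, the tiles 174327501 and 174328501 downstream of the exon 1A start and the tile 174330001 at the Gnas start, and the lower one was the control region tile 174298001. The median difference over the 19 tiles was 0.242 points and over all tiles -0.0227 points. Of single positions, 29 did not overlap with hemicastrated higher, of which 28 lay between 174327859 and 174328781, and 12 did not overlap with hemicastrated lower. The neighbouring positions of a fragment share reads, so these counts do not weigh as separate observations against the genome's shares of 2.31% and 2.66%.

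Compared within libraries and averaged over all 6, the 3 marked regions of the complex were close to each other in level, and the Gnas side was lower. In 10 comparisons of windows, each by an exact two-sided sign-flip permutation test over 6 libraries, the smallest possible p is 0.0312. The Nesp window minus the control region was -0.181 points ± 2.88 (SD, n = 6; exact p = 0.938), higher in 4 libraries and lower in 2. The Nesp window minus the exon 1A side was 0.886 ± 3.62 (SD, n = 6; exact p = 0.562), and the control region minus the exon 1A side was 1.07 ± 5.27 (SD, n = 6; exact p = 0.656). None of these 3 differences was larger than its spread between libraries.

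The Gnas side was below the other windows in all 6 libraries. The Nesp window exceeded it by 6.07 points ± 2.78, the control region by 6.25 ± 4.50 and the exon 1A side by 5.18 ± 2.70 (SD, n = 6 each; exact p = 0.0312 each, 0.0446 when adjusted over the 10 pairs). The adjusted p of these 3 pairs was 0.0781 at 20 reads and with reads pooled over positions, and 0.0521 with the strands of a CpG merged, so the call was lost there while the differences stayed between 4.52 and 7.53 points. The 25 positions of the next 70 kb downstream averaged 21.0% ± 2.75 (SD, n = 6) and lay above all 4 windows in every library with the same p. The comparisons of the Nesp window, control region and exon 1A side with that flank turned around when reads were pooled over positions, to 0.594, 1.26 and 0.642 points, so no order against the flank is given. The equally long upstream flank had no position with the required reads.

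These data hold levels per position and no allele. The name of opposite marks for the complex, with Nesp on one allele and the control region and exon 1A on the other, could therefore be neither seen nor tested here. Averaged over libraries, no position of the Nesp window, the control region or the exon 1A side reached 25%, and the highest were 18.9%, 16.7% and 12.9%.

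Other promoters that carry an oocyte mark were read in the same libraries, as start windows of 1000 bp either side. Of 12 listed genes, 10 were measured, and Peg3 and Mest were not. Of the 10, Snrpn, Zrsr1, Airn, Mcts2, Nnat, Peg10, Plagl1 and Kcnq1ot1 had mean levels from 5% to 25%, as exon 1A did. Grb10 (0.905% and 0.705%, hemicastrated before sham) and Inpp5f (0.454% and 0.479%) were below 1% at the main gene start, and their germline-marked promoters lie elsewhere in the gene. None of the 10 windows had an unadjusted p under 0.05 (against 4.32% of all start windows) and none had groups without overlap, where 5.68% of all windows were higher and 4.02% lower without overlap. No gene start window of 19474 (0%) passed the adjusted threshold with edgeR, and 0 did with limma.

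At the other marked promoters the libraries of the 2 groups overlapped. Snrpn, which encodes a splicing protein, read 19.5%, 12.9% and 8.07% in hemicastrated and 12.3%, 20.02% and 17.9% in sham replicates 1 to 3. Zrsr1, a splicing factor gene set within an intron of another gene, read 14.2%, 14.5% and 9.47% against 7.84%, 10.3% and 10.2%. Mcts2 read 11.6%, 14.2% and 8.42% against 8.15%, 9.40% and 7.49%. The difference of means was within the larger group SD at Snrpn, and at Zrsr1 and Mcts2 it was larger than either SD, although in each the ranges overlapped.

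Airn, the antisense RNA of the Igf2r cluster, read 9.61%, 11.6% and 10.4% against 10.8%, 10.2% and 8.62%. Kcnq1ot1, the antisense RNA of the Kcnq1 cluster, read 12.4%, 8.60% and 1.86% against 10.8%, 7.28% and 9.09%. Both overlapped between groups, as did Nnat (9.18% ± 1.72 and 9.08% ± 5.84), Peg10 (10.7% ± 4.42 and 6.81% ± 1.67) and Plagl1 (9.03% ± 2.75 and 8.34% ± 2.39; SD, n = 3 each).

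The mean of the 8 promoters at 5% to 25% was 12.7%, 10.2% and 8.86% in hemicastrated and 10.6%, 9.91% and 8.63% in sham replicates 1 to 3. Exon 1A minus this mean was 0.0198, 0.289 and 2.79 points in hemicastrated and -4.55, -4.56 and -2.59 points in sham replicates 1 to 3. The sham libraries thus had exon 1A below the other promoters and the hemicastrated libraries had it at or above them. The difference between groups in this quantity was 4.94 points (SE 1.10). These 8 were selected by their level in these libraries, so the value is a description. Its exact two-sided permutation p was 0.1 (n = 3 per group), the smallest this test can give, and no conclusion is drawn from it.

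**Figure D4:**
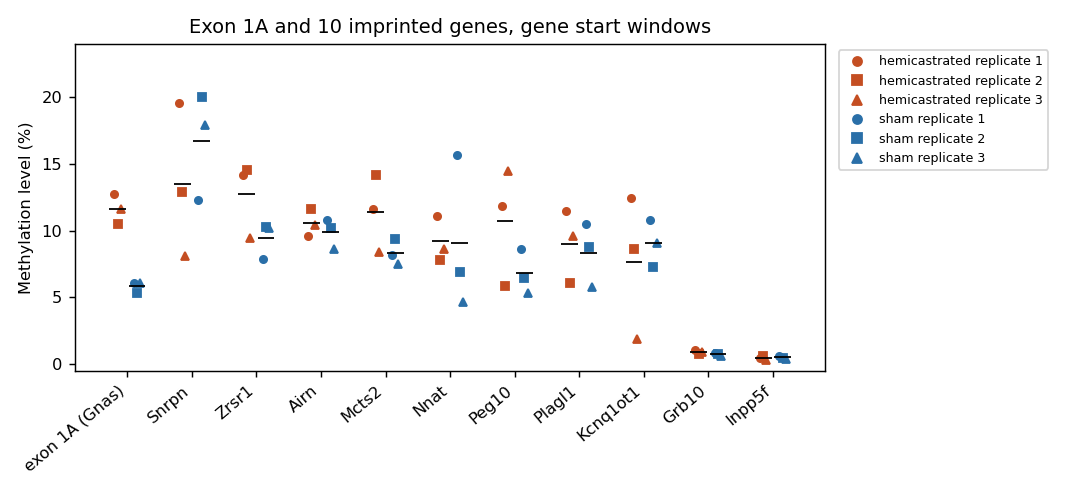
Methylation level (percent, y axis) of the exon 1A start window and of the start windows of 10 imprinted genes with an oocyte-methylated promoter, 1 point per library, bars at group means (n = 3). The groups are apart at exon 1A, at 11.6% and 5.81%, and overlap at the other 10 genes.

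Of the 2 genes listed for regions methylated on the paternal allele, H19 was not measured. At Meg3, a long noncoding RNA whose cluster is marked in sperm, 2 start windows were read, each from 5000 bp outside to 1000 bp inside the start rather than 1000 bp either side, so these windows overlap. The upstream one (7 positions, 133 to 280 calls) read 8.63%, 12.1% and 7.04% in hemicastrated and 24.4%, 18.6% and 15% in sham replicates 1 to 3, without overlap (unadjusted edgeR p of 0.0039, adjusted p = 0.998). The other (22 positions) stood at 56.5% ± 4.24 and 65.7% ± 6.01 (SD, n = 3 each; unadjusted edgeR p of 0.074) and overlapped. Whether either window holds the part of the cluster marked in sperm was not examined, so their levels are not read as those of a paternal germline mark. Exon 1A and the first Meg3 window differed in opposite directions, and neither passed the adjusted threshold.

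Neighbouring genes of the complex were hardly methylated at their starts. Of 8 listed, 6 were measured in 7 windows (Npepl1, Stx16, Nelfcd, Ctsz, Atp5e and Prelid3b), all with a mean under 5%. Nelfcd, a subunit of the negative elongation factor, did not overlap between groups at 0.711% ± 0.0517 and 0.351% ± 0.154 (SD, n = 3 each; unadjusted edgeR p of 0.045, adjusted p = 0.998). Atp5e, a subunit of ATP synthase, read 0.322%, 0.485% and 3.23% against 0.475%, 3.88% and 6.69%, with overlap. Npepl1 stood at 2.08% and 2.12%, Prelid3b at 0.657% and 0.892%, Ctsz at 0.559% and 0.549%, and Stx16 at 0.557% and 0.632% at its first start and 0.317% and 0.608% at its second, hemicastrated before sham.

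Genes that act with or downstream of the G protein subunit showed no difference that passed the test. Of 31 listed genes of cyclic AMP signalling, 26 were measured in 34 windows, and Adcy4, Adcy10, Gnai2, Pde4b and Pde4d were not. None of the 34 windows was called and none had an unadjusted p under 0.05, against 4.32% of all start windows. Starts of 1 gene can share positions, as those of Prkar1a do. In 31 windows the mean level was under 5%, and the median difference of all 34 was 0.0670 points, against 0.0246 points over all start windows. One window, of the protein kinase A regulatory subunit gene Prkar1a, did not overlap, at 0.532% and 0.397%, where over all start windows 5.68% were higher and 4.02% lower without overlap.

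The smallest p among windows higher in hemicastrated libraries belonged to Prkar2b, another regulatory subunit gene (0.714% ± 0.287 and 0.383% ± 0.0905, unadjusted edgeR p of 0.077), and Adcy9, an adenylyl cyclase gene (0.502% ± 0.129 and 0.351% ± 0.0536, unadjusted edgeR p of 0.14). Among those lower, they belonged to Fshr, the follicle-stimulating hormone receptor gene of Sertoli cells (3.03% ± 2.87 and 6.59% ± 3.61, 5 positions, unadjusted edgeR p of 0.21), and Rapgef3, a cyclic AMP-activated exchange factor gene (1.69% ± 1.08 and 2.02% ± 0.123, unadjusted edgeR p of 0.40; SD, n = 3 each). Lhcgr, the luteinising hormone receptor gene of Leydig cells, stood at 6.53% ± 3.64 and 5.34% ± 2.27 (SD, n = 3 each). All of these windows overlapped between the groups.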

How the data were processed

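Per the labels' protocols, DNA of the right testis was digested with MspI, short fragments were selected, converted with bisulfite and amplified. The submitters' processing notes name Bismark, TopHat2 2.0.11 and build GRCm38, with no role or order. The authors deposited 1 table per library with methylated and unmethylated read counts per cytosine position and a methylation level in percent. The deposited percent equalled methylated over all counts at every position, so the counts were used. No step for removing duplicate reads is given in the sources used here.

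Only positions read at least 5 times in each of the 6 libraries entered the work. Counts were summed in 500 bp tiles and in windows of 1000 bp either side of gene starts (for H19 and Meg3 from 5000 bp outside to 1000 bp inside), each with at least 3 positions. Starts came from the RefSeq promoter table. Genes without an entry, Gnasas1, H19 and Peg10 among them, took the gene end with more measured positions around it. Groups were compared with edgeR 4.0.16 in R 4.3.3 (quasi-likelihood test, 1 column per library, term methylation by group, Benjamini-Hochberg at 0.05 over the genome). The model was also run on simulated counts with larger shifts than the differences described here. That run does not show whether differences of these sizes would be called. Window means were compared by exact permutation in Python 3.11.15 with numpy 2.4.6, and scipy 1.17.1 gave the Wilson intervals. Libraries held 64504011 to 78630942 calls, with a median of 38 reads a position in the complex. Alternatives were minimums of 10 and 20 reads, extreme coverage left out, pooled reads, merged strands, other tile and window sizes, 1 or 5 positions per feature, a robust prior, limma 3.58.1 with 1 added to each count, a replicate block and leaving out each library.

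The members and gene lists were chosen with earlier results of these data known. Every tile of the control region and of the exon 1A and Gnas window was open to be named, and elsewhere the 3 smallest p in each direction. Single positions were named at the lowest and highest level of a window, or where groups differed by 10 points or more without overlap. In the cyclic AMP list the 2 smallest p in each direction were named. Other features named, such as Prkar1a, Lhcgr, the tiles of few positions and the gene body tiles, were chosen after their values were seen.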

Additional observations from a re-analysis of the deposited data

How the results depend on the processing

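The differences between groups kept their direction under every alternative run for the exon 1A side (5.56 to 6.88 points), the Gnas side (1.96 to 3.91) and the exon 1A and Gnas window (2.60 to 4.13). The exact p never went below 0.1. The Nesp window difference turned to -0.244 points at 10 reads and -0.497 at 20 reads. Leaving out 1 library moved the difference between groups from -1.68 to 1.73 in the Nesp window, -3.96 to 0.392 in the control region, -0.877 to 0.176 in the rest of the complex and -0.417 to 1.49 in the whole complex.

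Within libraries, the pairs that passed lost their call under 3 settings, at 20 reads, with reads pooled over positions and with strands merged, in that order. The Nesp window minus the Gnas side was 7.53, 6.35 and 5.27 points, the control region minus the Gnas side 7.01, 7.03 and 5.88, and the exon 1A side minus the Gnas side 7.05, 6.40 and 4.52. Against the downstream flank the Nesp window gave -0.378, 0.594 and -9.60, the control region -0.898, 1.26 and -8.99, the exon 1A side -0.866, 0.642 and -10.3, and the Gnas side -7.91, -5.76 and -14.9. Among pairs that did not pass, the Nesp window minus the control region turned to 0.520 and the control region minus the exon 1A side to -0.0319 at 20 reads, and the Nesp window minus the exon 1A side to -0.0480 with pooled reads. Leaving out 1 library leaves 5, too few to pass. The ranges were then 5.33 to 6.71 (Nesp window minus Gnas side), 5.003 to 7.15 (control region minus Gnas side), 4.77 to 6.06 (exon 1A side minus Gnas side), -12.2 to -9.40, -11.6 to -8.96, -13.1 to -10.1 and -17.9 to -15.3 (Nesp window, control region, exon 1A side and Gnas side minus flank), -0.703 to 0.878 (Nesp window minus control region) and -0.654 to 2.25 (control region minus exon 1A side).

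With edgeR at 1 position per feature, 2 tiles and 1 gene start window elsewhere in the genome were called. Leaving out 1 library called 0 tiles and 0 to 1 gene start windows (1 without hemicastrated replicate 3 and 1 without sham replicate 3). None was in the complex.

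Of the log2 coefficients of locus tiles, 192 kept their sign and 11 turned, and leaving out 1 library gave ranges of -0.42 to 0.17 (174284001), -0.18 to 0.25 (174285501), -1.47 to 0.50 (174295501), -0.41 to 1.02 (174299001), -0.44 to 0.21 (174299501), -0.46 to 0.25 (174300501) and -2.20 to 2.86 (174330501) for the tiles that turned.

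Of the gene start window coefficients, 375 kept their sign and 26 turned. Those that turned at 20 reads were Ctsz (0.18), Inpp5f (0.010) and Npepl1 (0.11), and those at 2000 bp either side were Airn (-0.066), Ctsz (0.00088) and the starts of Stx16 (0.77 and 0.81). Leaving out 1 library gave -0.36 to 0.036 (Gnas at the Nesp start), -1.47 to 0.50 (Gnasas1), -0.31 to 0.32 (Ctsz), -0.38 to 0.13 (Inpp5f), -0.96 to 0.25 (Kcnq1ot1), -0.24 to 0.73 (Nnat), -0.13 to 0.048 (Npepl1), -0.14 to 0.40 (Plagl1), -0.92 to 0.0099 (Rapgef3) and -0.72 to 0.16 (Stx16). The causes of these changes were not tested.

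The groups share replicate numbers, but same-numbered libraries deviated together only weakly (r = 0.0411, 0.06 and 0.0202 over 82658 tiles), and hemicastrated replicate 3 correlated best with sham replicate 1. They were not treated as paired. With a replicate block, 0 tiles and 0 gene start windows were called, and the window differences were the same by construction (6.21 points for the exon 1A side, exact p = 0.25, the smallest 3 pairs can give). The replicates are single mice, positions of the complex had a median of 38 reads, and no CpG of the exon 1A promoter itself was measured.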
